A study of Mus musculus with 14 samples.

Results

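The protein-coding genes around H3f3a on mouse chromosome 1 were examined in cells that carry or lack a working H3f3a gene. H3f3a lies at chr1:180800832-180813943 on the minus strand (GRCm38, GENCODE M21) and encodes the histone variant H3.3. Members were all protein-coding genes of that annotation that overlap chr1:175800000-185800000, with H3f3a itself left out. This gave 76 members, 33 of them at lower and 43 at higher coordinates than H3f3a, among 21718 protein-coding genes and 35449 genes of any kind listed in the files. Membership within the window followed position alone and used no measured value, but the window was chosen with earlier results of these data known.

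The 14 libraries came from primary cell lines of mouse embryos at stage E13.5, with 1 library a line and no treatment. Embryo heads gave neurospheres, floating cultures of neural stem and precursor cells, and body tissue without internal organs gave mouse embryonic fibroblasts (MEFs). The MEFs comprised 3 wild-type (WT) lines and 5 H3f3a knockout (KO) lines. The neurospheres comprised 3 lines of each genotype. The genotype is given as WT or KO only. No source used here names the mouse strain, the number of targeted copies or the embryo behind each line, so a MEF line and a neurosphere line of the same embryo cannot be matched.

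The genotype labels, WT and KO, do not name the design of the targeted allele. One such design, the knockout-first allele, carries a gene-trap cassette in an intron, which diverts the transcript of the targeted gene. The cassette and the DNA on both sides of it come from the embryonic stem cells in which the gene was targeted. Neighbouring genes can therefore differ between KO and WT in several ways that do not run through the lost protein: the cassette can act on nearby promoters, and flanking DNA of the stem cell strain can travel with the allele through crosses as a passenger. Both kinds of linked difference lie on the targeted chromosome, and a cassette acts mostly over short distances. The genes around H3f3a form no single pathway. They include the DNA repair genes Parp1 and Exo1, the Nodal antagonists Lefty1 and Lefty2, the translation enzymes Eprs and Iars2 and the RNA-binding protein Hnrnpu.

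Levels are given as CPM, counts scaled to the TMM-adjusted size of each library, and differences are log2 ratios of KO to WT with standard errors (SE). A gene was called at an adjusted p under 0.05 in edgeR's quasi-likelihood test, adjusted by Benjamini-Hochberg over all genes tested. Library totals ran from 1669406 to 3296178 gene counts. H3f3a stood at 833, 1417 and 842 CPM in the WT MEFs and at 7.16 to 18.6 CPM in the 5 KO MEFs. In neurospheres it stood at 2024 to 2423 CPM in the WT lines and at 27.5 to 73.5 CPM in the KO lines. All KO lines lay far below all WT lines of their cell type. The 8 fibroblast markers summed to 16020 to 25313 CPM in MEFs and to 16.0 to 91.0 CPM in neurospheres, and the 8 neural stem and precursor markers to 5957 to 9666 CPM in neurospheres and 75.9 to 170.3 CPM in MEFs. The 8 macrophage and blood markers summed to 59.8 to 173.1 CPM in WT MEFs, 16.8 to 81.2 CPM in KO MEFs and at most 2.48 CPM in neurospheres, and their part in the MEF comparison was not tested. The lines are described as independent, but whether each came from its own embryo is not given, so the p-values measure the spread between these lines.

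Certain libraries stood apart in ways that touch the members. In KO neurospheres 2 and 3 the median of chromosome 1 genes lay above the WT lines, as described with the neurosphere values. Among MEFs, WT line 2 and KO line 3 were together the 2 lowest of the 8 lines in 8 and the 2 highest in 9 of the 52 members tested, in all 32.7%, against 38.3% of all 10785 genes tested. Kif26b, a kinesin-family protein of cell adhesion and kidney development, showed this most plainly, with 10.4 CPM in WT line 2 and 25.1 CPM in KO line 3 against 66.5 to 161 CPM in the other 6 lines. The actin regulator Enah followed the same order, with 249 and 235 CPM in those lines and 356 to 522 CPM in the others. These lines carry different genotypes, so the pattern widened the spread within both MEF groups.

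Of the 76 members, 53 could be tested in at least 1 fit: 52 in MEFs, 51 in neurospheres and 50 in both. Gm10518 was not listed. The 9 members at 0 counts in all 14 libraries were Wdr64, 1700016C15Rik, Kif28, Mixl1, Lefty2, 9130409I23Rik, Ccdc121, Capn8 and Ccdc185. A count of 0 allows up to 3 counts in a library. The other 13 untested members had 1 to 60 counts over all libraries together, among them the flagellin receptor gene Tlr5 with 8 counts and the manganese transporter gene Slc30a10 with 27 counts. Mixl1 and Lefty2, both genes of early embryo patterning and both within 0.5 Mb of H3f3a, therefore gave no read in WT or KO lines. The window also holds non-coding genes, with 222 genes of all biotypes together, and no non-coding gene of the window passed the filter on low counts.

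Several members share DNA with a neighbour, and 2 pairs on opposite strands whose promoter windows overlap are shown here because the levels of 1 pair went opposite ways between cell types. RefSeq promoter windows of 300 bases (250 before and 50 after a start site, GRCm38.p6) were matched to 57 of the 76 members. Capitals mark matches to CACGTG (the E-box core), CGGAAG (the ETS core) and GGGCGG (the GC box), searched on both strands, and adjoining or overlapping matches run together. No window shown held CCAAT or TATAAA. The Aida window is chr1:183296810-183297109 on the plus strand and the Brox window chr1:183296959-183297258 on the minus strand, with 151 bases in common; a second Brox window without that overlap is not shown. The Tfb2m window is chr1:179546227-179546526 on the minus strand and the Cnst window chr1:179546279-179546578 on the plus strand, with 248 bases in common. Each is written 5′ to 3′ on its gene's strand.
Aida: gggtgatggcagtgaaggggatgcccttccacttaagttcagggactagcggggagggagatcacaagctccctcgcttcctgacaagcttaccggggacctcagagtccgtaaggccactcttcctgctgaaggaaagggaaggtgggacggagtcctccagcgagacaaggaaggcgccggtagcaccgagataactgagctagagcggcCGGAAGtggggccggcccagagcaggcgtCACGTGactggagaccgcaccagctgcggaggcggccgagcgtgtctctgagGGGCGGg
Brox: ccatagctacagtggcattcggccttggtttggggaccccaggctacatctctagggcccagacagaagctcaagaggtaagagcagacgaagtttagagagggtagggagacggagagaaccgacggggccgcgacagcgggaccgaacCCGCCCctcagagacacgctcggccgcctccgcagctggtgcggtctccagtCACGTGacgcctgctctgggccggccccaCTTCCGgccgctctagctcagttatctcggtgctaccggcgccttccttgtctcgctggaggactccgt
Tfb2m: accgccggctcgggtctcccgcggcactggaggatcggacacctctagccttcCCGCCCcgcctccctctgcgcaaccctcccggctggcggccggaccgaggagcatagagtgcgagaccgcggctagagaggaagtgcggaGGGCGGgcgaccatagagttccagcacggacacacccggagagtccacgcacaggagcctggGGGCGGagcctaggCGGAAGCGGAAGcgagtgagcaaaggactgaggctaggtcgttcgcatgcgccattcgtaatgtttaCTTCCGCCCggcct
Cnst: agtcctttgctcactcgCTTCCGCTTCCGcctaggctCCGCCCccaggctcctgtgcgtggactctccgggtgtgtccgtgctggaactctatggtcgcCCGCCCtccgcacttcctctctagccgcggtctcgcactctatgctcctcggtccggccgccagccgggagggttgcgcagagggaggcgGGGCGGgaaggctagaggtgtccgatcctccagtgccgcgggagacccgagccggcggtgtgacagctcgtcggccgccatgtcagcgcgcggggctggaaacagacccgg
The Aida and Brox windows hold the same single CACGTG and the same single CGGAAG. Of 32817 windows of that length over all genes, 7.15% hold CACGTG, 16.9% CGGAAG and 35.6% GGGCGG, and CCAAT and TATAAA occur in 37.4% and 13.6%. Among 72 windows of members the counts were 9, 18, 43, 26 and 5 in the same order. A match is a description of the letters and not a sign of binding. Aida encodes an inhibitor of JNK signalling through axin, and Brox a protein with a BRO1 domain that binds the membrane-remodelling ESCRT machinery. Tfb2m encodes a transcription factor of mitochondrial DNA, and Cnst (consortin) a protein that helps connexins reach the cell surface.

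The first question was whether the genes nearest to H3f3a differed between KO and WT. Within 0.5 Mb lie 16 members, of which 12 could be tested in MEFs and 11 in neurospheres, and none was called in either cell type. Acbd3, a Golgi scaffold protein, starts 88 kb away at lower coordinates (chr1:180726043-180754204, plus strand). It stood at 236, 185 and 216 CPM in the WT MEFs and at 235, 193, 186, 206 and 240 CPM in the KO MEFs. The KO lines lay within the range of the WT lines except for the highest, and the log2 difference was -0.0030 ± 0.14 (SE). In neurospheres it stood at 83.7, 124 and 109 CPM in WT and 83.5, 156 and 118 CPM in KO lines, with a log2 difference of 0.17 ± 0.28 (SE).

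Sde2, a protein of the replication fork and of splicing, is the nearest gene at higher coordinates, 37 kb away (chr1:180851127-180868113, plus strand). In MEFs it stood at 46.8, 41.1 and 38.1 CPM in WT lines and at 46.9, 48.6, 55.5, 42.6 and 62.5 CPM in KO lines. The groups overlapped through 1 KO line, and the log2 difference was 0.29 ± 0.17 (SE, 95% interval -0.10 to 0.67, unadjusted p = 0.127 and adjusted p = 0.9996 by edgeR). In neurospheres Sde2 stood at 50.7, 31.8 and 54.1 CPM in WT and 40.3, 53.5 and 36.3 CPM in KO lines, a log2 difference of -0.08 ± 0.29 (SE). The sign in neurospheres turned when WT line 1, WT line 3 or KO line 3 was left out, with values of 0.0091, 0.05 and 0.03.

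Parp1, which marks DNA breaks with poly(ADP-ribose), starts 245 kb away. It stood at 41.7 to 44.1 CPM in WT and 43.4 to 52.3 CPM in KO MEFs, and its log2 difference was 0.13 ± 0.14 (SE) there and 0.24 ± 0.27 (SE) in neurospheres.

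None of the other near genes separated KO from WT lines in CPM. Lin9, a subunit of the DREAM complex of cell cycle genes, differed by 0.01 ± 0.28 in MEFs and 0.09 ± 0.36 in neurospheres (log2 ± SE). The ion channel gene Tmem63a differed by -0.06 ± 0.17 and -0.39 ± 0.32, and the epoxide hydrolase gene Ephx1 by -0.15 ± 0.35 and 0.24 ± 0.51. Itpkb, a kinase of inositol trisphosphate, differed by -0.11 ± 0.43 and 0.04 ± 0.25. Nvl, an ATPase of ribosome assembly, differed by 0.05 ± 0.13 and 0.36 ± 0.24. Cnih4, which helps receptors leave the endoplasmic reticulum, differed by 0.15 ± 0.15 and 0.26 ± 0.23, and Wdr26, a subunit of the CTLH ubiquitin ligase, by -0.04 ± 0.11 and 0.33 ± 0.25. Lefty1 was tested in MEFs only, at 0.36 to 3.90 CPM in WT and 0 to 4.76 CPM in KO lines. Stum had 2 counts in all libraries together. The 95% intervals of Wdr26, Nvl, Parp1, Acbd3 and Cnih4 in MEFs all lay within 0.5 log2 units of 0.

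**Figure D1:**
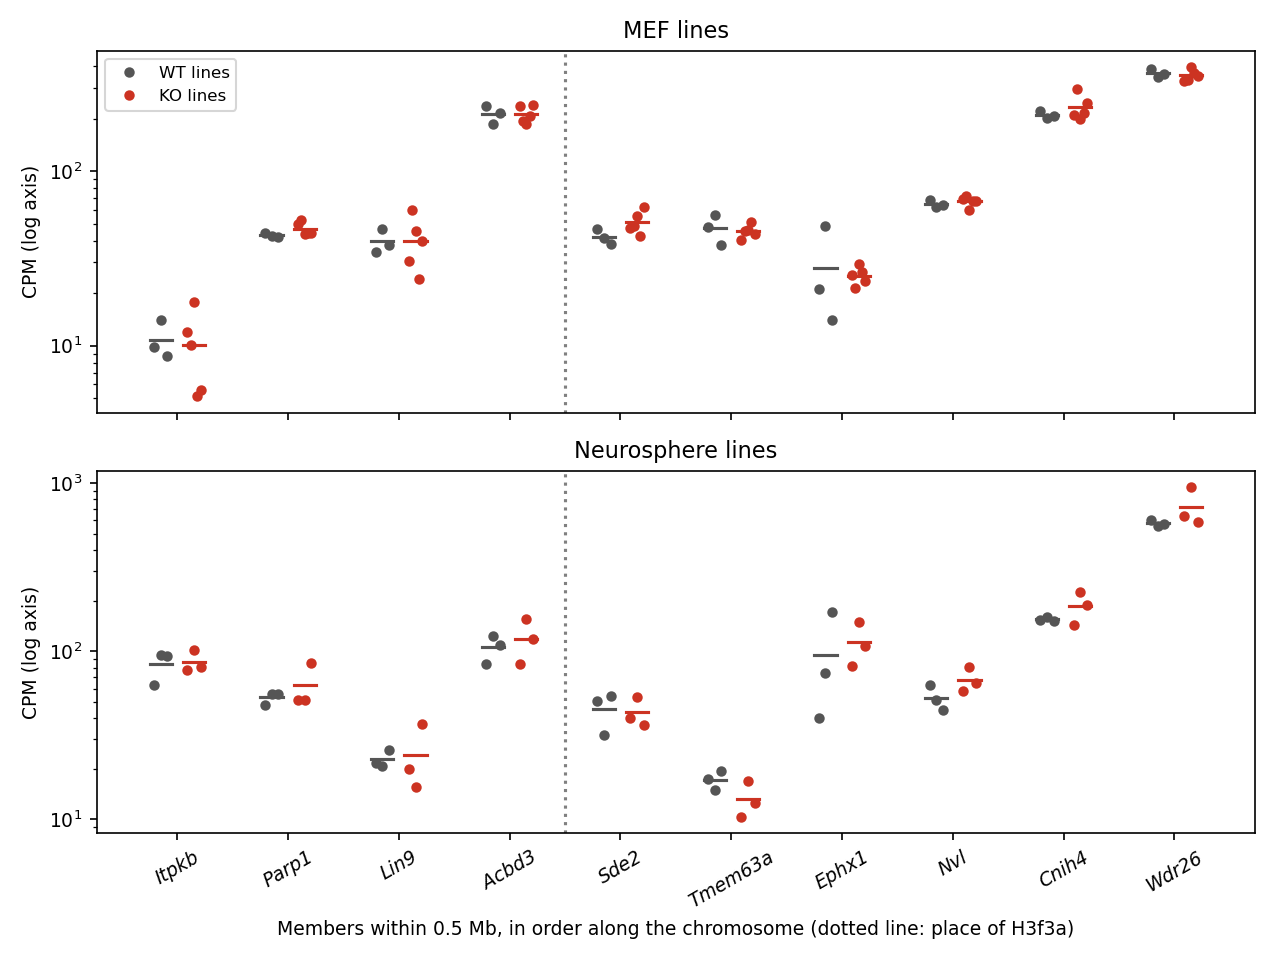
CPM (log axis) of 10 of the 11 members within 0.5 Mb that were tested in both cell types, in order along the chromosome, for MEF lines (top) and neurosphere lines (bottom). Points are lines (grey WT, red KO), short bars are group means and the dotted line marks the place of H3f3a. The WT and KO points overlap for every gene shown.

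Over the whole window in MEFs, no member differed between KO and WT lines beyond their spread by the test. None of 52 members was called, against 0.00927% of all genes, which was H3f3a alone. DESeq2 also called no member. At an unadjusted p under 0.05 there was 1 member (1.62% of all genes). Values above 0 were seen in 28 members and below 0 in 24, or 53.8% above 0 against 49.8% of all genes tested. The median log2 difference was 0.03, and the median absolute difference was 0.106 against 0.152 over all genes. Without WT MEF line 1 the median rose to 0.15. The median half-width of the 95% intervals was 0.497 log2 units, and 42 of the 52 intervals lay wholly between -1 and 1.

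Vmn1r1 (chr1:182154704-182164486, minus strand) had the smallest p in MEFs. The annotation names it a vomeronasal receptor gene, a family known for pheromone sensing. It stood at 3.90, 3.57 and 4.203 CPM in the WT lines and at 9.86, 9.78, 6.75, 4.43 and 6.66 CPM in the KO lines. All 5 KO lines lay above the 3 WT lines, at low levels, and it was the only member to do so (0.909% of all genes). The log2 difference was 0.94 ± 0.37 (SE, unadjusted p = 0.0301, adjusted p = 0.9996 by edgeR), so it was not called. In neurospheres Vmn1r1 stood at 13.47 to 15.7 CPM in WT and 13.6 to 20.5 CPM in KO lines, with a log2 difference of 0.23 ± 0.31 (SE). The test of the difference between the cell types gave -0.73 ± 0.45 (SE, unadjusted p = 0.128).

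Sdccag8, a centrosome protein of cilia, was the only member whose KO MEFs all lay below the WT MEFs (0.983% of all genes). It stood at 11.3, 15.4 and 12.9 CPM in WT and 10.5, 7.42, 10.6, 10.2 and 7.77 CPM in KO lines, a log2 difference of -0.50 ± 0.25 (SE, unadjusted p = 0.0717). Its 3′ end lies over that of a gene on the opposite strand. In neurospheres Sdccag8 had a log2 difference of 0.11 ± 0.44 (SE), and the groups overlapped.

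The remaining members with the smallest p in MEFs all had positive values and overlapping groups. The values were 0.24 ± 0.19 (log2 ± SE) for Sccpdh, 0.33 ± 0.29 for the Hedgehog-releasing protein Disp1 and 0.20 ± 0.18 for the kinase Cdc42bpa. They were 0.18 ± 0.16 for Ahctf1, which founds nuclear pores on chromatin, and 0.29 ± 0.28 for Zbtb18, a transcriptional repressor that acts in neuronal development. Single WT lines set much of these values: without WT line 2 Cdc42bpa was at 0.043. Without WT line 3 Zbtb18 was at 0.047, Disp1 at 0.13, Sccpdh at 0.12 and Ahctf1 at 0.11. Without WT line 1 all 5 were higher, from 0.32 to 0.58.

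In neurospheres the members leaned upward in KO lines, and so did the rest of chromosome 1. Of 51 members tested, 40 had a value above 0, or 78.4% against 51.3% of all genes tested, with a median log2 difference of 0.22. Of the 566 chromosome 1 genes outside the window, 75.8% had a value above 0, with a median of 0.26. Over the 10006 genes of other chromosomes the share was 49.8%. The members thus sat at the level of their chromosome, and none was called (0.00941% of all genes, which was H3f3a). DESeq2 again called no member, and 2 members had an unadjusted p under 0.05 (2.14% of all genes).

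The lean came from individual lines. Each line was set against the mean of the WT lines, gene by gene, over the 42 members with a mean log2 CPM of at least 4. The median deviation was -0.08, 0.04 and 0.02 in the WT neurospheres and 0.03, 0.40 and 0.28 in KO lines 1, 2 and 3. For chromosome 1 genes outside the window the medians in the KO lines were 0.09, 0.41 and 0.20, against -0.02 to 0.04 in the WT lines. KO lines 2 and 3 thus lay above the WT lines in these medians, both in the window and outside it, and KO line 1 lay closer to them. Along 9 bins of chromosome 1 the medians ran from 0.33 to 0.50 in KO line 2 from 0.09 to 0.28 in KO line 3 and from -0.16 to 0.17 in KO line 1, against -0.09 to 0.11 in the WT lines. KO line 2 was above every WT line in all bins, while KO line 3 fell just below the highest WT line in 1 of them. The thinnest bin held 17 genes.

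**Figure D2:**
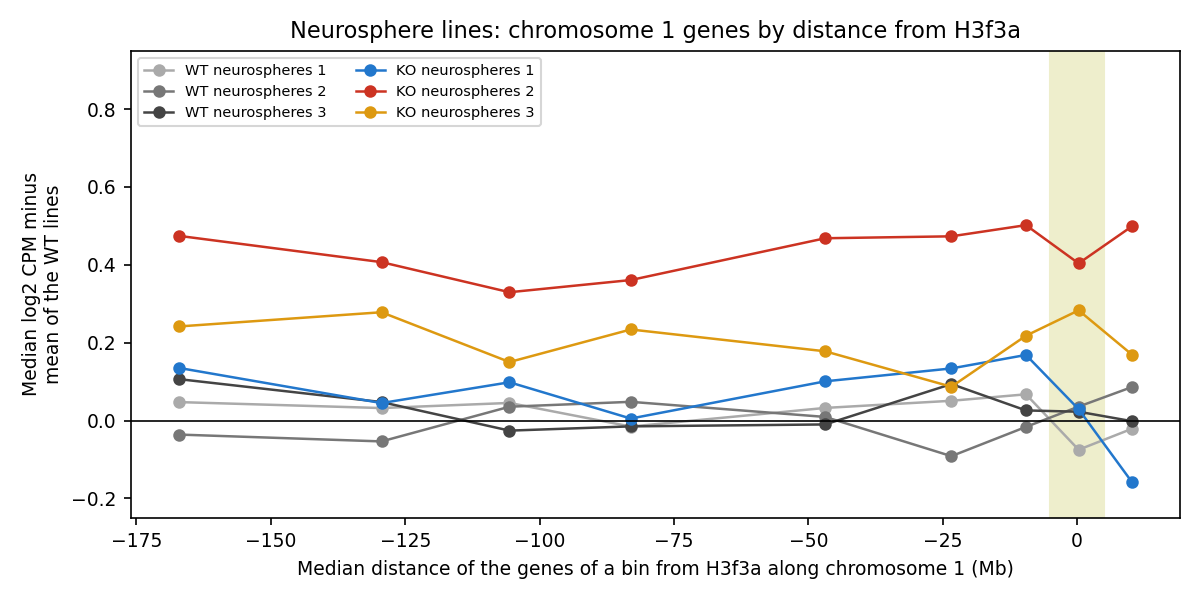
Median log2 CPM minus the mean of the WT neurosphere lines (vertical axis) for bins of chromosome 1 genes by their median distance from H3f3a in Mb (horizontal axis). Each line of points is 1 neurosphere line and the shaded band is the window of 5 Mb on each side. KO line 2 (red) stays between 0.33 and 0.50 and KO line 3 (orange) between 0.09 and 0.28 over the whole chromosome. In the window bin KO line 2 is at 0.40, with 0.50 in the bins on both sides, and KO line 3 at its highest, 0.28. KO line 1 is at 0.03 there, between 0.17 at lower and -0.16 at higher coordinates.

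Other chromosomes also moved as a whole in single neurosphere lines. In KO line 2 the median deviation was 0.71 on chromosome 8, 0.37 on chromosome 10, 0.36 on chromosome 3 and 0.33 on chromosome 15. It was lower, from -0.15 to -0.20, on chromosomes 4, 5, 7, 9, 11, 17 and X. In KO line 1 it was 0.46 on chromosome 10, and in KO line 3 it was 0.18 on chromosome 2. WT line 3 had -0.20 on chromosome 18. In the 8 MEF lines all 160 such medians lay between -0.08 and 0.08. DNA copy number was not measured in these libraries, and its part in these values was not tested.

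**Figure D3:**
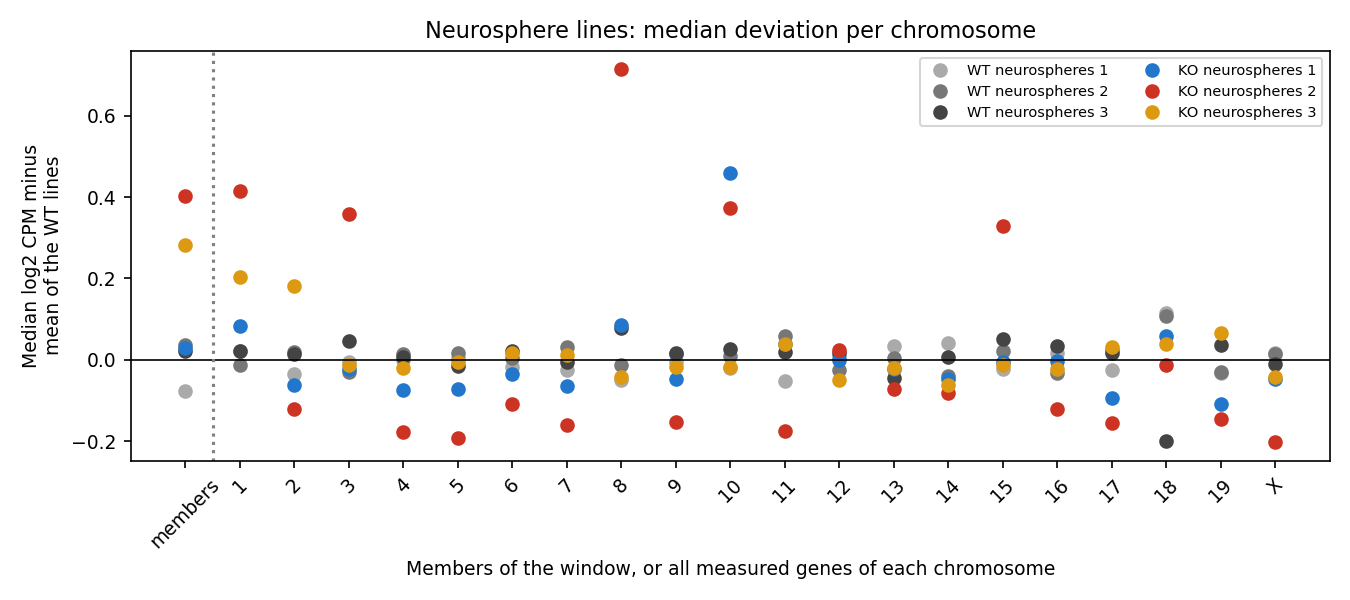
Median log2 CPM minus the mean of the WT neurosphere lines, for the members (left of the dotted line) and for all measured genes of each chromosome, with 1 point for each neurosphere line. KO line 2 stands high on chromosomes 1, 3, 8, 10 and 15, KO line 1 on chromosome 10, and the members follow chromosome 1.

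Set against chromosome 1, the members no longer leaned, which follows from their median lying near that of the rest of chromosome 1. When each line's chromosome 1 median outside the window was subtracted, the median of the members was -0.01 in neurospheres, with 23 of 51 above 0, and 0.02 in MEFs, with 28 of 52 above 0. Single members still stood off that level in neurospheres, such as Mark1 at 0.55 and Tmem63a at -0.60 (mean of KO minus mean of WT lines). Tmem63a lay at -0.77, -0.44 and -0.63 in the KO lines and at -0.02, -0.16 and 0.15 in the WT lines. These single values were not tested. When the libraries were scaled on chromosome 1 genes outside the window, which moved the median of all genes to -0.21, the median of the members was -0.0054 and 24 of 51 were above 0. With KO neurospheres 2 and 3 left out, which leaves 1 KO line, the median was 0.03, with 30 of 54 members above 0. That fit did not call H3f3a either (log2 difference -5.20, adjusted p = 0.0634 by edgeR), so its lack of calls says nothing of the members. Both alternatives were chosen after the data were seen, and the scaling repeats the subtraction in another form. Lines 2 and 3 were the KO neurospheres with the higher chromosome 1 medians, so a lower median of the members without them is no separate support.

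Aida had the smallest p in neurospheres. It stood at 48.7, 56.3 and 50.1 CPM in the WT lines and at 66.5, 77.8 and 106 CPM in the KO lines, and all 3 KO lines lay above all 3 WT lines. The log2 difference was 0.69 ± 0.25 (SE, unadjusted p = 0.0221, adjusted p = 0.9992 by edgeR). In MEFs Aida stood at 169, 179 and 143 CPM in WT and 146, 158, 173, 137 and 155 CPM in KO lines, with a log2 difference of -0.09 ± 0.13 (SE). The test of the difference between cell types gave 0.76 ± 0.24 (SE, unadjusted p = 0.00634, adjusted p = 1.00 by edgeR), and it was not called. Brox, whose promoter window overlaps that of Aida as printed above, differed by 0.19 ± 0.21 (SE) in neurospheres and by -0.04 ± 0.21 (SE) in MEFs.

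Mark1, a kinase of microtubule-associated proteins, was the other member with a small p in neurospheres. It stood at 13.8, 20.2 and 17.2 CPM in WT and 19.1, 43.0 and 30.8 CPM in KO lines. KO line 1 lay within the WT range and KO lines 2 and 3 above it. Among the KO lines the order was that of the chromosome 1 medians, where KO line 1 also lay above the WT lines. The log2 difference was 0.85 ± 0.36 (SE, unadjusted p = 0.0426 by edgeR). It was 0.55 without KO line 2, and also 0.55 with the chromosome 1 medians subtracted. Its MEF value was -0.09 ± 0.30 (SE).

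Members whose KO neurospheres all lay above the WT lines were Desi2, Sccpdh, Aida and Fbxo28, which makes 4 of 51 against 3.59% of all genes and 58 of the 566 other chromosome 1 genes. Desi2, a desumoylating peptidase, stood at 101, 90.5 and 99.0 CPM in WT and 123, 146 and 116 CPM in KO lines. Fbxo28, an F-box protein of an SCF ubiquitin ligase, stood at 49.9, 50.04 and 43.1 CPM in WT and 52.8, 74.1 and 53.6 CPM in KO lines. Mia3, which loads collagen for export, was the only member below, with 209 to 213 CPM in WT and 197 to 205 CPM in KO lines (3.53% of all genes). The gap for Mia3 was narrow, with a log2 difference of -0.07 ± 0.19 (SE).

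Other members with small p in neurospheres had overlapping groups. The tRNA synthetase gene Eprs differed by 0.45 ± 0.26 (log2 ± SE), the ceramide enzyme gene Degs1 by 0.42 ± 0.25 and Adss, an enzyme of AMP synthesis, by 0.52 ± 0.35. Efcab2 differed by 0.69 ± 0.47, and its highest value, 43.6 CPM, was in KO line 2. Without KO line 2 Efcab2 was at 0.14 and Adss at 0.27, and without KO line 3 Eprs was at 0.26 and Degs1 at 0.22. With KO lines 2 and 3 left out, the values of Adss and Acbd3 turned to -0.30 and -0.32, each resting on 1 KO line.

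**Figure D4:**
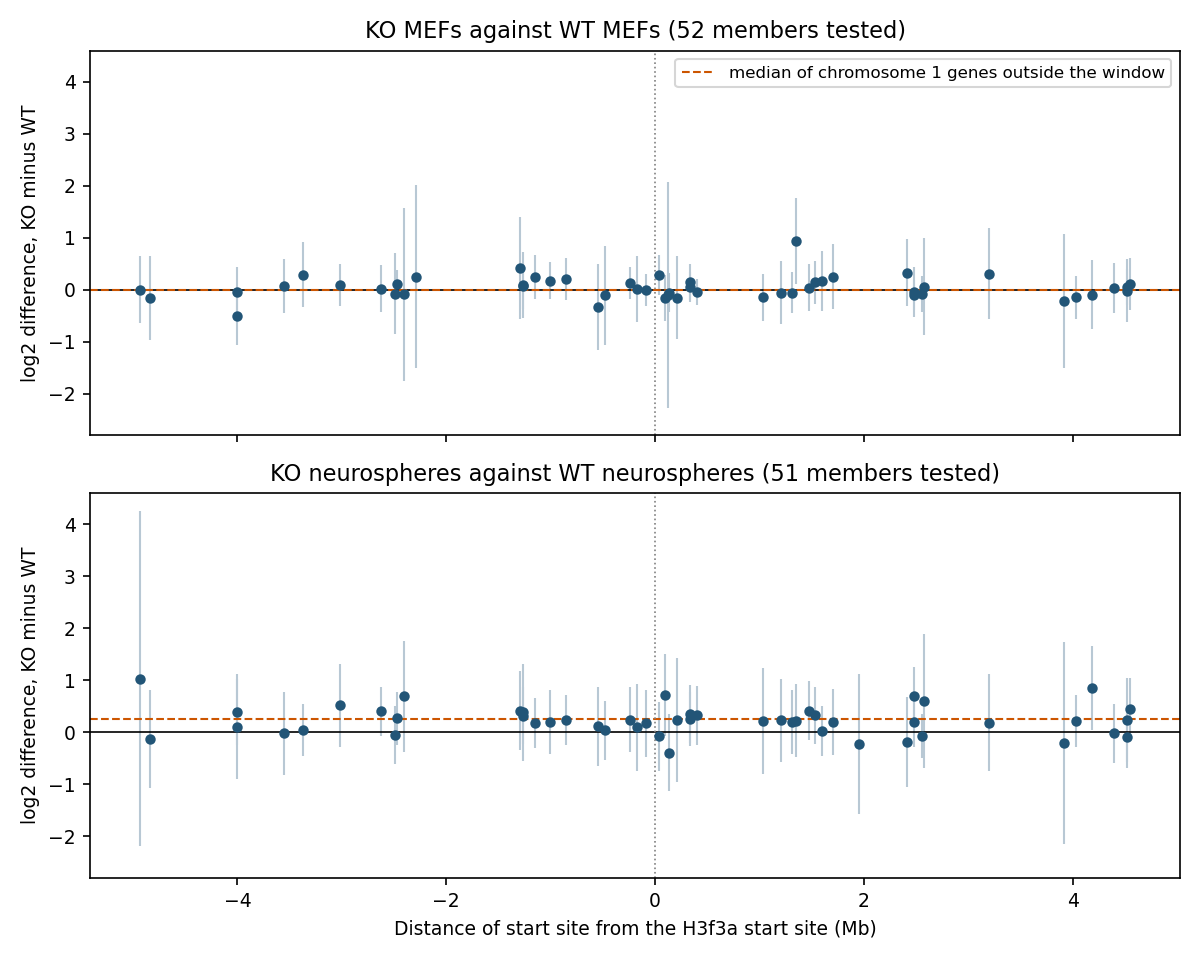
Log2 difference of KO to WT (vertical axis) of each member tested, by the distance of its start site from that of H3f3a in Mb (horizontal axis), in MEFs (top, 52 members) and neurospheres (bottom, 51 members). Points are edgeR estimates, bars 95% intervals, and the dashed line is the median of chromosome 1 genes outside the window (0.26 in neurospheres). No slope towards H3f3a is seen, and the neurosphere points scatter around the dashed line.

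The medians by distance lay close together in both cell types. In MEFs the median log2 difference was -0.02 for the 14 members within 1 Mb, 0.10 for the 20 at 1 to 2.5 Mb and 0.01 for the 18 at 2.5 to 5 Mb. In neurospheres the medians over the same distances were 0.23, 0.22 and 0.20, in order of distance but apart by far less than the spread of single members, and those of chromosome 1 genes farther out were 0.27 at 5 to 10 Mb, 0.24 at 10 to 50 Mb and 0.26 beyond 50 Mb. The size of the difference was not ordered by distance: Spearman's rho of absolute difference and absolute distance was -0.11 over 52 members in MEFs and -0.0033 over 51 in neurospheres, a description over genes that share the same libraries. At the lower edge Exo1, a DNA exonuclease of mismatch repair, lies inside the window, with 0.384, 5.29 and 9.86 CPM in WT and 4.57, 0 and 26.4 CPM in KO neurospheres. Exo1 spread over that range within both groups, and its MEF value was -0.0014 ± 0.29 (SE). Just outside, Chml differed by 0.19 in MEFs and 0.30 in neurospheres, and Opn3 by 0.45 and -0.56. At the higher edge Bpnt1 lies inside with -0.02 and 0.23, and Lyplal1 outside with -0.20 and 1.29, none of them called.

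The KO label is shared by both cell types, and the genotype term was also estimated over all 14 lines with cell type as a covariate. This fit shares its libraries with the fits of each cell type. None of 53 members was called (0.00826% of all genes), and 1, Vmn1r1, had an unadjusted p under 0.05 (2.21% of all genes). Its log2 difference was 0.58 ± 0.24 (SE, unadjusted p = 0.0284, adjusted p = 0.9998 by edgeR). Hnrnpu, a nuclear RNA-binding and scaffold protein, came next in the order of p with 0.18 ± 0.10 (SE), followed by Sccpdh with 0.21 ± 0.12 and Cdc42bpa with 0.21 ± 0.13. The lysine methyltransferase gene Smyd3 had 0.41 ± 0.28. Values above 0 were seen in 42 of 53 members with a median of 0.14, against 49.6% of all genes and, for the rest of chromosome 1, 67.6% with a median of 0.10. The count of 42 went to 34 of 55 without KO neurospheres 2 and 3, where the median was 0.05.

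Members had the same sign in both cell types about as often as other genes. Of the 50 members tested in both, 22 were above 0 in both and 5 below 0 in both, so that 54.0% had the same sign, against 49.5% of the 9460 genes tested in both. No member's KO and WT lines were apart in both cell types in the same direction (0.0248% of all genes above and 0.0165% below). The test of the difference between cell types called no member and no gene at all (0% of 12113). At an unadjusted p under 0.05 it held 2 members (3.02% of all genes), and Aida had the smaller p of them.

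Grouped by what they do, the members formed no list with a called gene in any KO fit. The lists were chosen with earlier results of these data known. The list called genome upkeep and nuclear genes also held Cep170 and Trp53bp2, to which that name applies only loosely. Of its 13 members tested, 10 had values above 0 in MEFs with a median of 0.11, and 12 in neurospheres with a median of 0.24. In the fit over both cell types all 13 were above 0, with a median of 0.17. There 79.2% of all members were above 0 with a median of 0.14, and 67.6% of the other chromosome 1 genes with a median of 0.10. Nvl, Hnrnpu and Smyd3 had the smallest p in that list. The list of translation and protein export, 8 tested, had 4 above 0 in MEFs and 5 in neurospheres, with medians of 0.02 and 0.18. For mitochondria and metabolism, 9 tested, the counts were 4 and 8 with medians of -0.02 and 0.24. For signalling the counts were 5 of 10 in MEFs and 7 of 9 in neurospheres, with medians of 0.01 and 0.18. For cytoskeleton, cilia and adhesion they were 3 of 6 and 5 of 6, with medians of 0.02 and 0.21. Of the developmental transcription factors, Zbtb18 and the homeobox gene Hlx were tested, and 1 of them was above 0 in each cell type. The neurosphere medians of all lists but the last lay between 0.18 and 0.24, below the 0.26 of the other chromosome 1 genes.

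The same kind of fit, with 3 lines against 3, found differences between the cell types without the targeted allele. With 41.6% of all genes called, a far larger unadjusted p passes the adjustment there than in the KO fits. These calls therefore do not show what size of difference the KO fits could resolve. Between WT neurospheres and WT MEFs 24 of 52 members were called, 11 higher in neurospheres (20.8% of all genes) and 13 lower (20.8%), beside 41.6% of all genes called in either direction. Bulk libraries cannot tell fewer cells of a type from less RNA per cell. Without WT MEF line 3 the count was 16 and without WT MEF line 2 it was 25.

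Higher in neurospheres were Susd4, Zbtb18, Itpkb, Efcab2, Vmn1r1, Sccpdh, Brox, Cox20, Trp53bp2, Wdr26 and Marc2. Efcab2 lost its call in edgeR without WT MEF line 1, WT neurosphere line 1 or WT neurosphere line 2, at adjusted p-values of 0.0566, 0.0870 and 0.0539. Susd4, a complement inhibitor of the nervous system, stood at 0, 1.79 and 0.62 CPM in WT MEFs and at 11.7, 67.0 and 24.9 CPM in WT neurospheres, a log2 difference of 5.32 ± 0.97 (SE, adjusted p = 0.00471 by edgeR). Zbtb18 stood at 11.4 to 24.2 and at 127 to 169 CPM, a difference of 2.99 ± 0.32 (SE). Itpkb stood at 8.95 to 13.99 and at 63.8 to 94.8 CPM, a difference of 2.93 ± 0.30 (SE). For each of these the groups were far apart. Vmn1r1, the member with the smallest p between genotypes in MEFs, was also higher in neurospheres, by 1.85 ± 0.34 (SE).

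Among those lower in neurospheres were Kif26b, Capn2, Aida, Eprs, Adss, Ahctf1, Tmem63a, Lbr, Degs1, Acbd3, Cdc42bpa and Lin9. Kif26b stood at 86.1, 10.4 and 129 CPM in WT MEFs and at 1.17, 3.35 and 0.361 CPM in WT neurospheres, a difference of -5.58 ± 1.098 (SE). Capn2, a calcium-dependent protease, stood at 156 to 268 and at 38.6 to 62.7 CPM, a difference of -2.10 ± 0.30 (SE). Eprs differed by -1.62 ± 0.30 (SE) and the nuclear envelope receptor gene Lbr by -1.43 ± 0.38 (SE). Exo1 differed by -1.998 ± 0.755 (SE) and was not called (adjusted p = 0.0685 by edgeR). DESeq2 called it (adjusted p = 0.0218), as did limma on TPM (adjusted p = 0.0326) and edgeR without WT neurosphere line 3 (adjusted p = 0.0412).

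The 2 pairs with overlapping promoter windows behaved differently between cell types. Aida stood at 172, 179 and 147 CPM in WT MEFs and at 49.4, 56.0 and 49.5 CPM in WT neurospheres, a log2 difference of -1.69 ± 0.19 (SE, adjusted p = 0.000639 by edgeR). Brox stood at 38.1, 44.5 and 46.6 CPM in WT MEFs and at 86.0, 86.2 and 76.5 CPM in WT neurospheres, a difference of 0.94 ± 0.20 (SE, adjusted p = 0.00825 by edgeR). Both were called in opposite directions although 151 bases of their promoter windows are the same. Tfb2m and Cnst had values of -0.37 ± 0.26 and -0.31 ± 0.39 (SE), neither called. Of 2 further pairs with start sites within 1 kb of each other on opposite strands, Cep170 and Sdccag8 had -0.28 and -0.44, and Nvl and Cnih4 -0.32 and -0.47, also not called.

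**Figure D5:**
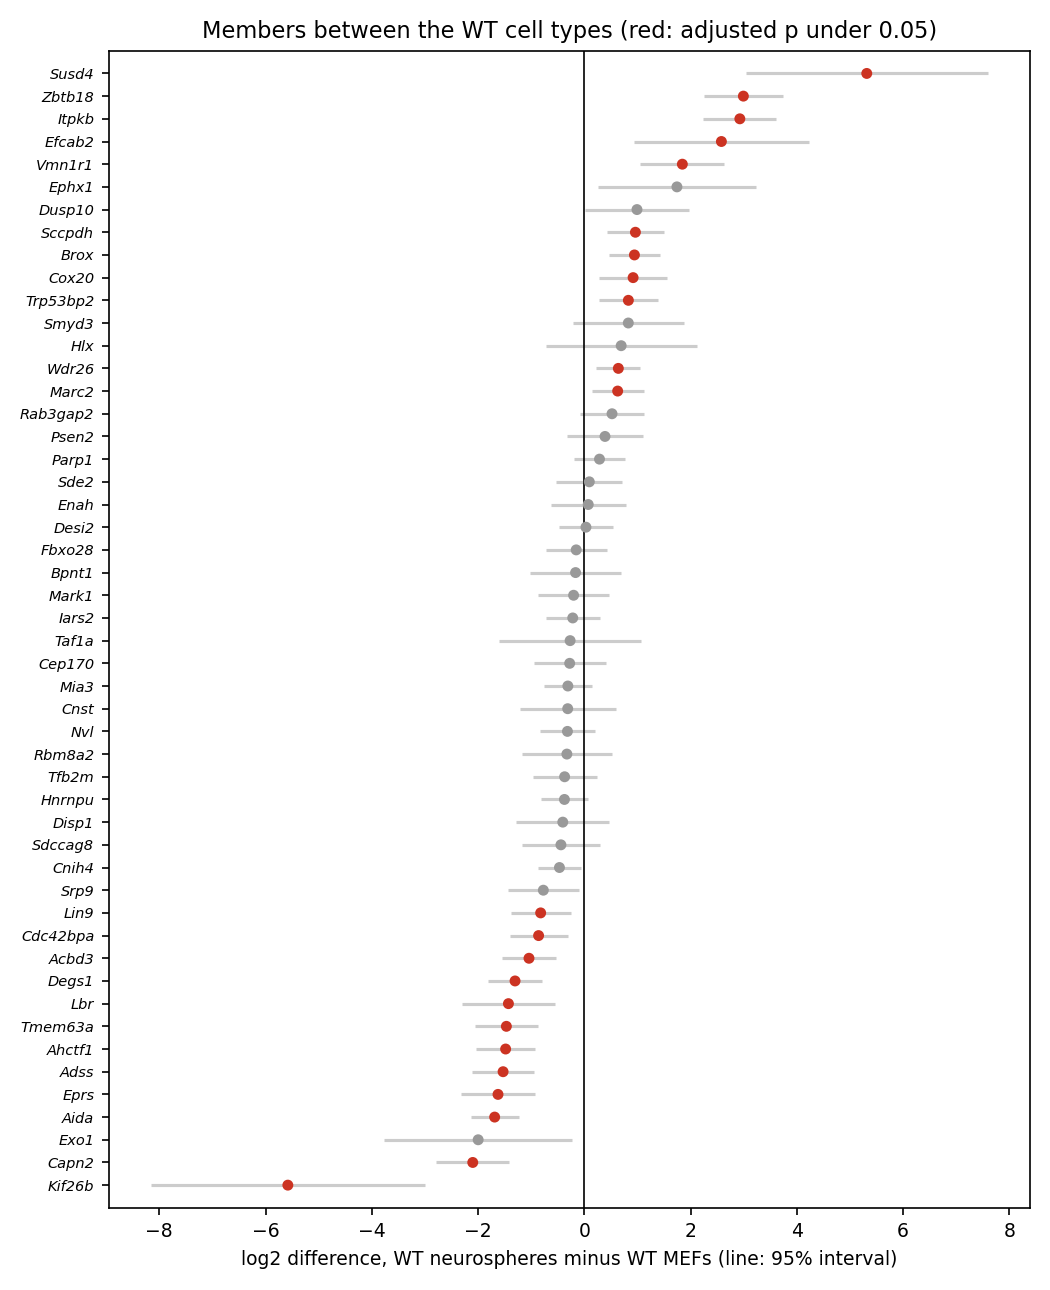
Log2 difference of WT neurospheres to WT MEFs (horizontal axis) of the members tested, in order of the difference, with 95% intervals as lines; members not reported here are left out. Red points are called at an adjusted p under 0.05, from Kif26b at -5.58 to Susd4 at 5.32, and grey points are not called.

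How reads were assigned bears on certain members. In 14 of the 75 members listed a gene that overlaps the member covers its 3′ end or reaches within 300 bases of it. That end is the part read by the 3′ libraries. Genes that lie wholly beyond the 3′ end were not counted. Such pairs include Cox20 and Hnrnpu, Cdc42bpa and Coq8a, Lbr and Dnah14, and Iars2 and Rab3gap2, each on opposite strands. The library kit marks strand, but the strand setting of the counting is not given in the sources used here. Rbm8a2, an intronless copy of the RNA-binding gene Rbm8a that lies within Pld5, may share reads with its parent gene, so its values of -0.16 in MEFs and -0.13 in neurospheres are uncertain.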

How the data were processed

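RNA of 14 mouse cell lines was read with a 3′ mRNA kit (QuantSeq FWD), per the labels. Expected counts and TPM per transcript were deposited by the authors, made with Salmon 1.1.0 per the submitters' processing notes, which also name edgeR. The deposited expected counts were summed per gene of GENCODE M21 (GRCm38) and rounded, and the deposited TPM were summed for an alternative. Of 116945 transcripts, 1000 matched no gene, with 0.251% to 0.425% of reads. The index, strand setting and filters used upstream were named by no source used here. A 3′ library gives about 1 read a transcript, so levels are not divided by length.

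Genes were filtered with filterByExpr, scaled by TMM and tested with edgeR 4.0.16 (R 4.3.3, quasi-likelihood, robust), with Benjamini-Hochberg adjustment over all genes at 0.05. Alternatives used DESeq2 1.42.0, limma 3.58.1 on log2(TPM + 1), other scalings, filters, windows and libraries. Totals of 1669406 to 3296178 counts limit precision most for members under about 10 CPM. All pairs of replicates differed beyond sampling noise (19 pairs, chi-square per gene at least 4.29). The test was run on simulated counts that held no shift of whole chromosomes, and its outcome there is not given here. Distances are between the most upstream annotated starts. For chromosome medians, log2 CPM used a prior count of 2 and genes with a mean log2 CPM of at least 4. Named genes were all members within 0.5 Mb, the 8 members with the smallest p in each KO fit, the 5 with the largest difference each way between WT cell types, the 3 at each edge, and up to 3 for each role list. The window that sets the members, and the lists, were chosen with earlier results of these data known. Certain members are counted but not reported here by name.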

Additional observations from a re-analysis of the deposited data

Results flagged for a closer look

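A single line stood apart from the other 4 KO MEFs in 3 of the 36 members checked (Dixon's ratio above 0.71), where about 1 in 20 such groups is flagged by chance. Desi2 stood at 128.3 CPM in KO MEF line 3, against 80.3 to 91.4 CPM in the other KO MEFs. Cnst stood at 14.5 CPM in the same line, against 10.2 to 11.3 CPM. In both genes WT MEF line 2 was also high, at 107.2 CPM for Desi2 and 15.4 CPM for Cnst. These lines were the 2 highest of the 8 MEF lines for both genes. Hnrnpu stood at 997.8 CPM in KO MEF line 2, against 853.8 to 890.8 CPM.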

How the results depend on the processing

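No member was called in any KO fit under any alternative run, leave-one-out included, though the fits that did not call H3f3a say nothing of the members. The gene counts over the whole table moved more. In neurospheres edgeR called 1 gene, DESeq2 called 7, the fit with no filter 2, and the fit without KO neurospheres 2 and 3 called 0. DESeq2 called 3 genes for the genotype by cell type difference, where edgeR called 0 (366 at an unadjusted p under 0.05). Leaving out 1 line gave 0 to 2 called genes in neurospheres, and 1 called gene in MEFs each time. The count in neurospheres was 0 without WT line 2 or KO line 1 and 2 without WT line 1. The gene lost was H3f3a, whose log2 difference barely moved (-5.38 at an adjusted p of 0.0801 and -5.46 at 0.202).

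The median of the members in neurospheres, 0.22, went to -0.0054 with scaling on chromosome 1 and to 0.034 without KO neurospheres 2 and 3, and ran from 0.14 to 0.32 with 1 line left out. In MEFs it ran from 0.011 to 0.15, the highest without WT MEF line 1, and over both cell types from 0.11 to 0.20. Windows of 2.5 and 10 Mb gave medians of 0.04 and 0.04 in MEFs and 0.23 and 0.23 in neurospheres.

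Acbd3 lay so near 0 that its sign turned. In MEFs it was 0.0045 with DESeq2, 0.0037 with size factors and 0.0064 with no filter, and ran from -0.091 to 0.083 with 1 line left out. In neurospheres it was -0.082 with scaling on chromosome 1 and -0.32 without KO neurospheres 2 and 3, and ran from -0.065 to 0.37 with 1 line left out. Over both cell types the values were -0.020 and -0.083, and -0.027 to 0.14. Adss in neurospheres turned to -0.30 without KO neurospheres 2 and 3, and Sde2 there ran from -0.27 to 0.052 with 1 line left out. Between WT cell types 21 to 25 members were called by alternative settings and 16 to 25 with 1 line left out, over 3414 to 5206 genes.

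Replicate numbers are shared by the groups, but same-numbered lines did not deviate together (correlations of 0.0288, -0.261 and -0.588 in MEFs and 0.126, -0.108 and 0.225 in neurospheres). With the replicate number as a block the count in MEFs was 0, H3f3a being lost at an adjusted p of 0.0796, and no member's call changed.

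Depth limits the members below about 10 CPM, such as Efcab2 and Lefty1 in MEFs. With 3 lines a group the median 95% half-width in neurospheres was 0.637 log2 units. These intervals are for single genes and are not adjusted over all genes tested, as the calls are. The half-width is therefore not the size of difference at which a member is called. Differences above it also went without a call in neurospheres, such as 0.69 for Aida and 0.85 for Mark1. The lack of calls thus leaves differences of that size open, as well as smaller ones.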
